A study of Danio rerio with 8 samples.

Results

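The visual cycle is the chain of reactions that restores the light-sensitive form of the retinal chromophore after a photon has changed its shape. It is followed here through 10 zebrafish genes, rpe65a, lrata, rdh5, rlbp1a, rlbp1b, rgra, rgrb, rdh8a, rbp3 and rbp4l. Members were every non-control probe of the array whose transcript accession belongs to 1 of these genes, which gave 18 probes out of 43603, for 10 of the 12858 genes with a symbol. Of these genes, 5 had 1 probe each and 5 had several. All 18 probes were well above background on all 8 arrays and passed the filter on dim probes, with single-array signals from 128 to 170954 and no saturated spot. The 18534 probes with no gene symbol were not searched for further copies of these genes.

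The samples were 4 pools of control larvae, labelled WT, and 4 pools of LIS1 morphants, each pool holding 10 whole larvae of the WIK background at 4 days post fertilization (dpf). LIS1 binds and regulates the microtubule motor dynein, and a morpholino is an antisense oligomer that lowers a gene's output for the first days of life. The morphants had been chosen for a slight phenotype together with seizure behaviour, both groups drew on common egg pools, and no label states whether the controls had been injected. A pool measures the whole body, so fewer cells of a type and less RNA per cell cannot be told apart.

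In a photoreceptor, light turns the bound retinal from its cis to its trans form. A retinol dehydrogenase reduces the released trans-retinal, carrier proteins take retinol across the space around the outer segments, and the retinal pigment epithelium esterifies it, isomerises it and oxidises it back to cis-retinal. Cones can also draw on a route through Müller glia, the radial glia of the retina. Zebrafish have duplicates of several of these genes, and of the retinaldehyde-binding proteins rlbp1a is known as the form of the pigment epithelium and rlbp1b as the form of Müller glia.

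A level is the log2 signal minus the 75th percentile of its array, and differences are morphant minus control on that log2 scale, with moderated standard errors and with adjusted p-values from limma over all 36695 probes tested. The scale itself differed in brightness. The 75th percentile averaged 1237 ± 178 intensity units on control arrays and 1598 ± 154 on morphant arrays (SD over 4 arrays each, two-sided exact permutation p = 0.0571), whereas the signal of 10 spike-in probes averaged 2589 ± 314 and 2042 ± 167 (exact permutation p = 0.0571). Scaling the arrays to the spike-ins in place of the percentile raised the median difference of all probes from -0.03 to 0.68, so every rise and fall is relative to the bulk of the probes. Between 83.8% and 88.8% of spots per array were well above background. Neither zebrafish LIS1 gene had a probe that was lower in morphants: of 2 pafah1b1a probes 1 was higher, by 0.65 (adjusted p = 0.0305), and the 4 pafah1b1b probes differed by -0.03 to 0.07. The labels do not state how the morpholino acts, so transcript levels check neither the knockdown nor the labels.

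Of the 18 visual cycle probes, 6 were lower in morphants at an adjusted p under 0.05, which is 33.3% of them, where 21% of all tested probes were lower. A single one was higher, where 17.4% of all probes were higher, and 11 did not pass. The falls lay in 4 genes: rgra, rpe65a, all 3 probes of rbp4l, and 1 of 3 probes of rgrb. The median difference of the 18 probes was -0.51, against -0.03 over all probes. With each gene read from its brightest probe, 3 of 10 genes were lower (rgra, rpe65a and rbp4l) and 0 higher in limma. Beside them were 21.9% and 16.4% of all 23391 genes, where each transcript with no symbol counted as a gene. At an unadjusted p under 0.05, 6 of the 10 genes were lower and 1 higher, beside 27.4% and 20.9% of all genes. When the spike-ins set the scale, rgra alone passed as lower and 5 probes as higher, where 4.61% of all probes were lower and 55.6% higher.

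**Figure D1:**
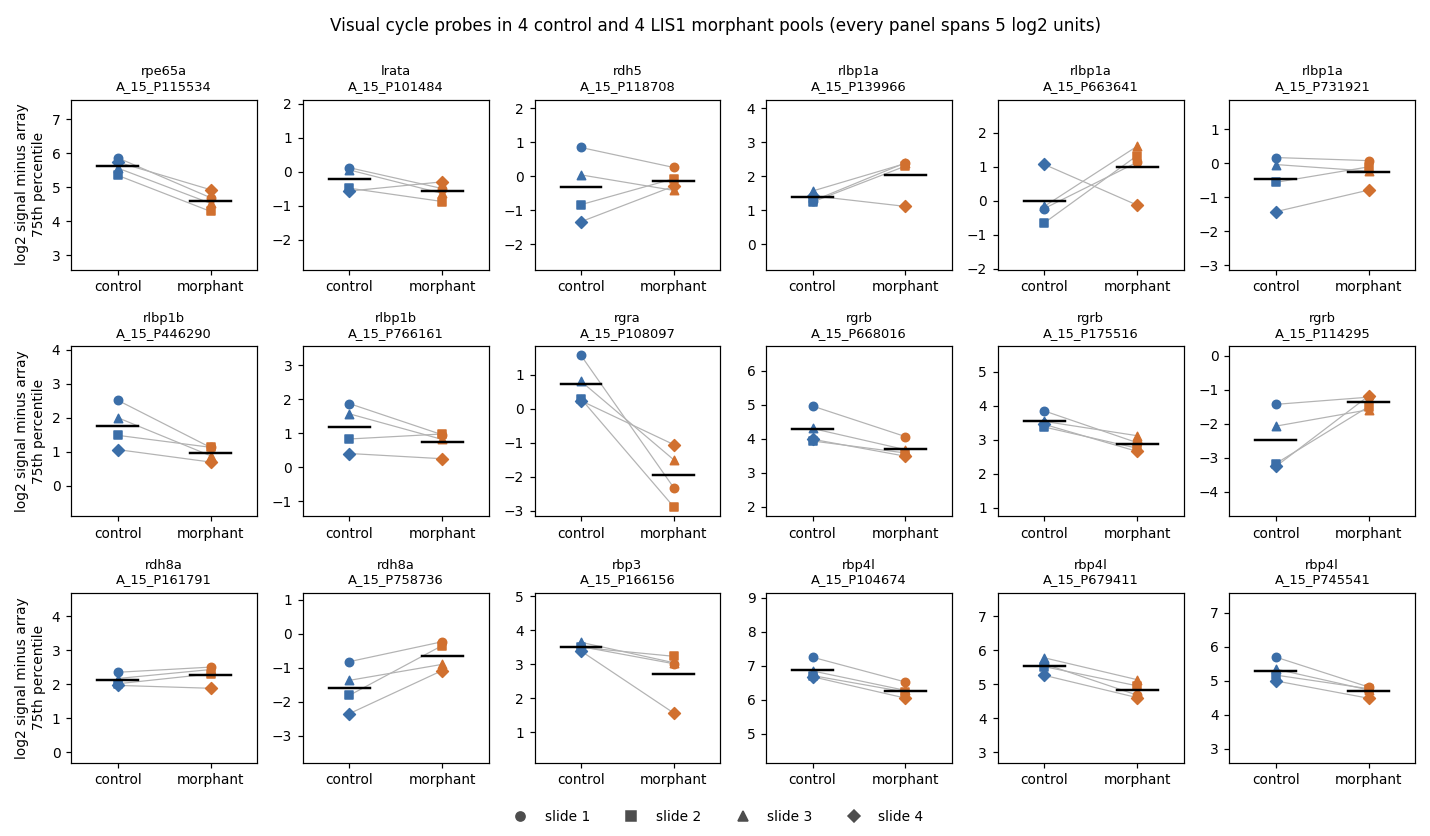
Log2 signal relative to the array's 75th percentile for every visual cycle probe in each of the 4 control and 4 morphant pools, with bars at the group means. The rgra, rpe65a and rbp4l probes show morphant pools below every control pool, while the rlbp1a, rdh5 and lrata probes overlap between groups.

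rpe65a encodes the isomerohydrolase of the pigment epithelium, the enzyme that turns all-trans retinyl esters into cis-retinol. Its probe read 5.86, 5.35, 5.56 and 5.74 in control pools 1 to 4 and 4.69, 4.29, 4.52 and 4.93 in morphant pools 1 to 4. Every morphant pool lay below every control pool. The means were 5.63 ± 0.22 and 4.61 ± 0.27 (SD, n = 4 each), and rpe65a fell by 1.02 (standard error 0.17, 95% interval -1.42 to -0.63, adjusted p = 0.00239), that is 2.03-fold. Each of the 4 slides held 1 array of either group, and within slides the difference ran from -1.17 to -0.81. Under the spike-in scale it was -0.31 and no longer passed (adjusted p = 0.133). Its distance of 0.99 below the median of all probes is the same on both scales, since rescaling shifts all probes of an array alike.

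The enzymes on either side of that step did not follow it past the threshold. lrata encodes lecithin retinol acyltransferase, which makes the retinyl esters that RPE65 uses. Its probe lay between -0.57 and 0.12 in controls and between -0.88 and -0.30 in morphants, overlapping, with a difference of -0.36 (95% interval -0.82 to 0.10, adjusted p = 0.193). rdh5 encodes the dehydrogenase that oxidises cis-retinol to cis-retinal in the pigment epithelium. Its control pools were widely spread, from -1.34 to 0.85, and enclosed the morphant pools at -0.42 to 0.26. The rdh5 difference was 0.19, or -0.15 without control pool 4, with a 95% interval of -0.78 to 1.16 (adjusted p = 0.750). The other rpe65 gene measured, rpe65c, differed by 0.09 (adjusted p = 0.762).

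RGR opsins bind all-trans-retinal and convert it in light to the cis form. In mammals RGR is found in pigment epithelium and Müller cells. The rgra probe read 1.57, 0.30, 0.81 and 0.24 in control pools 1 to 4 and -2.32, -2.88, -1.50 and -1.05 in morphant pools 1 to 4. The lowest control pool stood 1.29 above the highest morphant pool. rgra fell by 2.67 (standard error 0.44, 95% interval -3.66 to -1.68, adjusted p = 0.00199), a 6.36-fold difference and the widest among the members. Only 1.16% of all tested probes fell as far or farther. The fall was between -3.90 and -1.29 within slides, and rgra passed as lower under all 17 alternative settings, with differences from -2.97 to -1.96.

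The duplicate rgrb had 3 probes, which did not agree. Probe A_15_P175516 read 3.84, 3.37, 3.54 and 3.45 in controls and 2.91, 2.75, 3.11 and 2.65 in morphants, with no overlap. On that probe rgrb fell by 0.69 (standard error 0.15, adjusted p = 0.00806), but it read 0.02 under the spike-in scale. The brightest probe, A_15_P668016, read 4.96, 3.94, 4.30 and 3.99 in controls and 4.07, 3.58, 3.68 and 3.49 in morphants. Its groups overlapped through morphant pool 1, and its difference of -0.59 missed the threshold (adjusted p = 0.0818), but passed with the slide as a replicate block (adjusted p = 0.0158). The dimmest probe, A_15_P114295, went the other way, reading -1.43, -3.17, -2.07 and -3.25 in controls and -1.22, -1.49, -1.58 and -1.18 in morphants. It was the single probe called higher, by 1.11 (standard error 0.39, adjusted p = 0.0495). That call was lost in 7 of the 8 fits that left out 1 pool, with adjusted p up to 0.125, and the call stood when control pool 1 was left out.

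**Figure D2:**
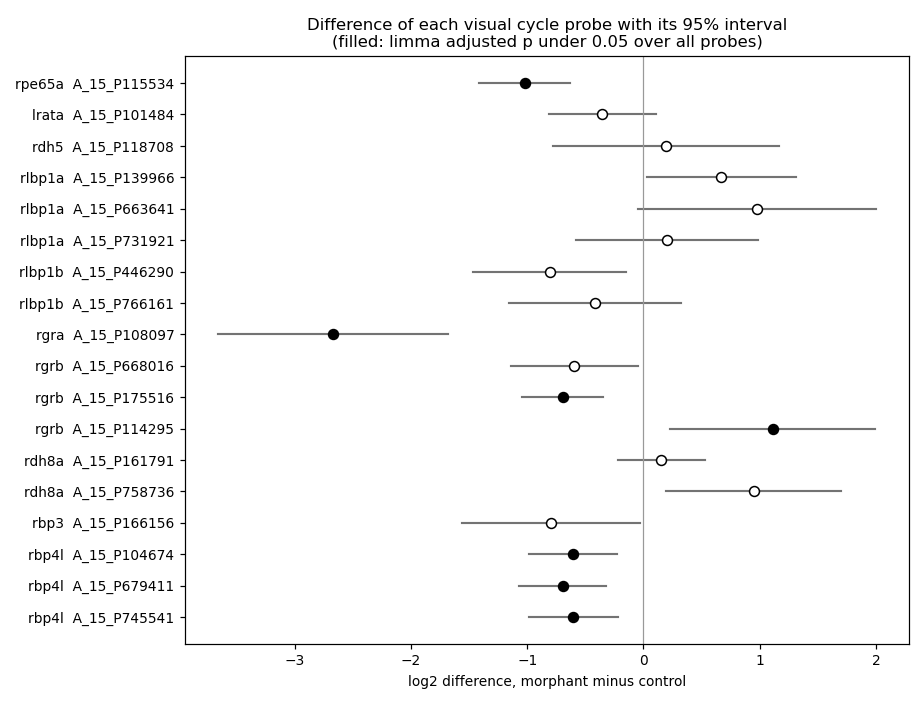
Difference between 4 morphant and 4 control pools for each of the 18 visual cycle probes, on the log2 scale, with 95% intervals; filled points passed an adjusted p of 0.05 over all probes. rgra at -2.67 lies farthest from 0, and the 3 rgrb probes fall on both sides of 0.

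Retinaldehyde-binding protein, also called CRALBP, holds cis-retinoids and hands them between the enzymes of the cycle. For rlbp1a, the form of the pigment epithelium, probe A_15_P139966 read 1.27, 1.24, 1.56 and 1.42 in controls and 2.39, 2.29, 2.37 and 1.11 in morphants. Morphant pools 1 to 3 lay above every control pool and morphant pool 4 below every one. The mean was 1.37 ± 0.15 in controls and 2.04 ± 0.62 in morphants (SD over 4 pools), with a difference of 0.67 (95% interval 0.03 to 1.31) that did not pass (adjusted p = 0.0904). Without morphant pool 4 the difference was 0.98 and passed (adjusted p = 0.00160).

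A second rlbp1a probe, A_15_P663641, read -0.22, -0.65, -0.16 and 1.07 in controls and 1.14, 1.33, 1.61 and -0.12 in morphants. On slides 1 to 3 the morphant array was the higher of the pair and on slide 4 the lower. Its difference of 0.98 did not pass (adjusted p = 0.117), but it was 1.35 without morphant pool 4 (adjusted p = 0.0290) and 1.33 without control pool 4 (adjusted p = 0.0324). The dimmest probe, A_15_P731921, lay between -1.42 and 0.17 in controls and between -0.78 and 0.08 in morphants, with a difference of 0.20 (adjusted p = 0.672). No rlbp1a probe was called, and all 3 differences were above 0, that of the dimmest turning to -0.12 without control pool 4.

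For rlbp1b, the form of Müller glia, probe A_15_P446290 read 2.52, 1.49, 2.01 and 1.07 in controls and 1.13, 1.13, 0.89 and 0.70 in morphants. Only control pool 4 reached into the range of the morphants. The means were 1.77 ± 0.63 and 0.96 ± 0.21 (SD, n = 4 each), and the difference was -0.81 (95% interval -1.47 to -0.15, adjusted p = 0.0556). It passed with the replicate block (adjusted p = 0.0303) and, at -1.04, without control pool 4 (adjusted p = 0.0145). The second probe, A_15_P766161, read 1.87, 0.83, 1.57 and 0.41 against 0.96, 0.98, 0.82 and 0.25, which overlap, with a difference of -0.42 (adjusted p = 0.335). Under the spike-in scale A_15_P446290 was at -0.09 (adjusted p = 0.796) and A_15_P766161 at 0.29 (adjusted p = 0.470).

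The duplicates were then set against each other within each array, with the probes of a gene averaged, which cancels the scale of the array. A change in this quantity shows that the genes changed unequally, not which of them is more abundant. rlbp1a minus rlbp1b was -1.79, -1.15, -1.33 and -0.38 in control pools 1 to 4 and 0.16, 0.12, 0.40 and -0.41 in morphant pools 1 to 4. The mean moved from -1.16 ± 0.59 to 0.07 ± 0.34 (SD, n = 4 each), a shift of 1.23 toward rlbp1a in morphants, and the groups overlapped through pool 4 of each. The two-sided exact permutation p was 0.0571, also after adjustment over the 2 pairs compared. The shift was present on slides 1 to 3 and absent on slide 4, where it was -0.03, and with slides as pairs the exact sign-flip p was 0.250. From the brightest probe of each gene the shift was 1.48 with an exact permutation p of 0.0286, the smallest that 4 against 4 can give, and without control pool 4 it was 1.49 with an exact p of 0.0286.

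rgra minus rgrb was -0.89, -1.08, -1.11 and -1.16 in controls and -4.24, -4.50, -3.24 and -2.71 in morphants. The control pools lay close together and every morphant pool lay far below them. The mean went from -1.06 ± 0.12 to -3.67 ± 0.84 (SD, n = 4 each), a shift of -2.61 toward rgrb. The average over the rgrb probes, which did not agree, changed by -0.06. From the brightest probe of each gene the shift was -2.08, and with normexp and the 75th percentile -2.17. For the shift of -2.61 the exact permutation p was 0.0286, the smallest possible, and 0.0571 after adjustment over the 2 pairs. All 4 slides showed it, from -3.42 to -1.55, with a sign-flip p of 0.125, which is the smallest exact value that 4 slides allow.

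**Figure D3:**
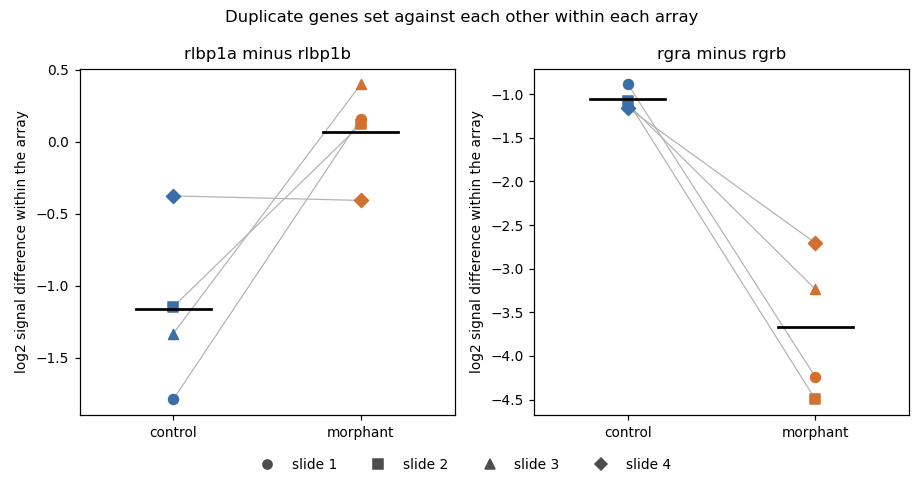
Within-array difference of the log2 levels of rlbp1a and rlbp1b (left) and of rgra and rgrb (right) in each pool, with lines joining the control and morphant arrays of a slide and bars at the group means. The rlbp1 difference rises on slides 1 to 3 and stays at about the same value on slide 4, whereas the rgr difference drops on all 4 slides.

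Among the genes that act in or around photoreceptors, rdh8a encodes the dehydrogenase of the outer segment that reduces all-trans-retinal to retinol. Its brighter probe, A_15_P161791, lay between 1.97 and 2.35 in controls and between 1.88 and 2.5 in morphants, overlapping, with a difference of 0.16 (95% interval -0.22 to 0.53, adjusted p = 0.488). The dimmer probe, A_15_P758736, read -0.82, -1.81, -1.37 and -2.35 in controls and -0.23, -0.35, -0.90 and -1.08 in morphants. Its difference of 0.95 lay at the threshold (adjusted p = 0.0508) and passed with the replicate block (adjusted p = 0.0161). Under the spike-in scale both rdh8a probes passed as higher, at 0.87 and 1.66.

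rbp3 encodes the interphotoreceptor retinoid-binding protein, which photoreceptors secrete and which ferries retinoids across the space around them. Its probe read 3.52, 3.5, 3.65 and 3.39 in controls and 3.02, 3.24, 3.05 and 1.57 in morphants. Every morphant pool was lower than every control pool, a separation shown by 7 of the 18 member probes. Over all probes 37.8% had groups that did not overlap, and 20.6% had them with morphants lower. The means were 3.52 ± 0.11 and 2.72 ± 0.77 (SD, n = 4 each), and the difference of -0.80 did not pass (95% interval -1.56 to -0.03, adjusted p = 0.0910). Without morphant pool 4 it was -0.41, which is smaller but passed (adjusted p = 0.0404).

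rbp4l encodes a secreted retinol-binding protein of the photoreceptor layer, known in fish as purpurin, and was the brightest member. Probe A_15_P104674 read 7.24, 6.71, 6.84 and 6.67 in controls and 6.52, 6.22, 6.27 and 6.04 in morphants. Probe A_15_P679411 read 5.6, 5.52, 5.78 and 5.26 against 4.68, 4.95, 5.13 and 4.61. Probe A_15_P745541 read 5.70, 5.17, 5.35 and 5.0 against 4.82, 4.77, 4.73 and 4.49. On all 3 probes every morphant pool lay below every control pool. rbp4l fell by 0.60, 0.70 and 0.60 (adjusted p = 0.0202, 0.0109 and 0.0215), and these differences were 0.11, 0.02 and 0.11 under the spike-in scale. With normexp background correction and the 75th percentile they were -0.65, -0.72 and -0.66, and none of the 3 passed (limma adjusted p = 0.0506, 0.0726 and 0.0567). Probes A_15_P104674 and A_15_P745541 missed the threshold without morphant pool 4 (adjusted p = 0.0516 and 0.0544), the latter also without control pool 3 (adjusted p = 0.0525).

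Within groups, members often deviated the same way in a pool. Taken as a mean over its probes, each of the 10 genes was above its group mean in control pool 1 and each was below it in control pool 2, while 47.9% and 54.0% of all genes were above their group means in those pools. In control pool 4, 8 of 10 members were below, and in morphant pool 4, 7 of 10, while 55.5% and 47% of all genes were above. Morphant pool 4 was low for rbp3 by 1.15 and for rlbp1a by 0.86 relative to the morphant mean, yet high for rgra by 0.89. Over the 8 arrays, 36 of the 45 member pairs had deviations that correlated above 0, with a median Pearson correlation of 0.47. The highest were rlbp1b with rbp4l and with rdh8a, at 0.95 each, then rdh5 with rlbp1b at 0.95 and rdh5 with rgrb at 0.95, and rlbp1a followed rbp3 at 0.93. The lowest was rpe65a with rbp3, at -0.67. These values rest on 8 arrays of separate pools, and the genes of an array share its slide, RNA pool and scale. No test was made of these correlations.

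**Figure D4:**
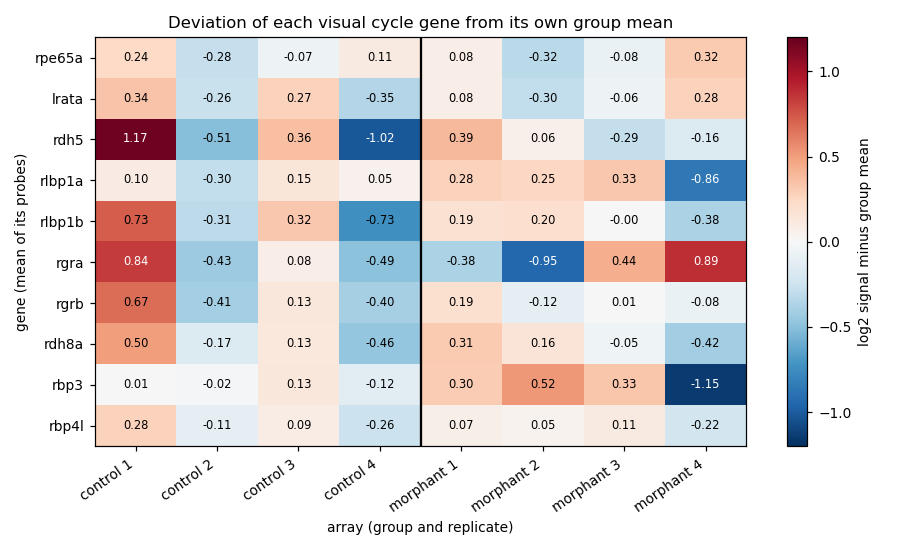
Deviation of each of the 10 genes (mean over its probes) from its group mean in each pool, on the log2 scale. Control pool 1 is above 0 for all 10 genes and control pool 2 below 0 for all 10, and morphant pool 4 is lowest for rbp3.

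Among named genes with probes well above background on all arrays (11744 genes), those whose deviations followed rpe65a most closely over the 8 arrays were kmt5ab, bin3 and slc66a3, each at a correlation of 0.98. For rlbp1b they were zgc:77439 at 0.999, sid4 at 0.99 and sc:d189 at 0.99. These are the highest of 11744 correlations over only 8 arrays. Such a selection yields high values by itself, and no test was made of them. The 3 genes closest to rlbp1b differed between the groups by -0.07, 0.76 and 1.01, unlike the -0.81 of rlbp1b itself.

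Other genes of retinol uptake, storage and oxidation were measured on the same arrays, each by its brightest probe. Of 21 measured and reported, 5 were lower and 3 higher, where 21.9% and 16.4% of all genes were, and the median difference was -0.21 against -0.06 for all genes. The 3 rises became 1 without morphant pool 2 or without control pool 2 or 3. Under the spike-in scale 0 were lower by limma and 8 higher, where 4.86% and 53.4% of all genes were. Normexp with the 75th percentile gave 4 lower and 1 higher, where 5.54% and 5.93% of all genes were. The falls included both measured receptors for retinol uptake, stra6 by a difference of -1.03 (adjusted p = 0.00140), whose other probes also read lower at -1.71 and -1.88, and stra6l by -1.04 (adjusted p = 0.000595). dgat1a, an acyltransferase whose mammalian form can esterify retinol, differed by -1.70 (adjusted p = 0.00917).

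The remaining falls were in the retinol dehydrogenase genes rdh14a, at -0.67 (adjusted p = 0.00753), and rdh12, at -0.48 (adjusted p = 0.0321), whose other probe read 0.17. The rises were in cyp27c1, at 0.66 (adjusted p = 0.00701), dhrs3a, at 0.57 (adjusted p = 0.0211), and rdh10b, at 0.39 (adjusted p = 0.0495). cyp27c1 makes the dehydro form of vitamin A that shifts visual pigments to longer wavelengths, dhrs3 enzymes reduce retinal to retinol, and rdh10 enzymes oxidise retinol on the way to retinoic acid.

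The other 13 measured genes did not pass on their brightest probe. For rdh12l a dimmer probe did, at -1.93 (adjusted p = 0.00384 over all probes). Among the 16 dimmer probes of this list, 5 were lower and 3 higher, where 21% and 17.4% of all tested probes were. rbp4, the retinol carrier of blood plasma, differed by -0.32 (adjusted p = 0.134), and rrh, which encodes peropsin, by 0.78 (adjusted p = 0.154). The retinol-binding gene rbp5 differed by -0.17. The dehydrogenase and reductase genes rdh8b, rdh10a, rdh12l, rdh14b, dhrs3b and dhrs7 differed by 0.81, -0.21, -0.44, 0.04, 0.60 and -0.80. rpe65c was at 0.09, lratb.2 at -0.43, abca4a, the retinoid transporter of outer segments, at -0.39, and degs1 at -0.20.

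In the supply of retinoids from the gut and in retinoic acid metabolism and reception, 7 of 26 measured genes were lower and 2 higher, with a median of -0.08, beside 21.9% and 16.4% of all genes. Leaving out 1 pool gave 3 lower (without morphant pool 1), 4 (without morphant pool 2 or 3 or control pool 4) or 5, and 0 to 2 higher. Under the spike-in scale 0 were lower and 15 higher by limma, beside 4.86% and 53.4% of all genes. Normexp with the 75th percentile gave 2 lower and 0 higher by limma, beside 5.54% and 5.93%. The largest falls were in rbp2a, an intestinal retinol-binding protein, at -1.0 (adjusted p = 0.0448), and the retinoid X receptor gene rxraa, at -0.98 (adjusted p = 0.0142). On brightest probes the rises were in the aldehyde dehydrogenase genes aldh8a1, at 1.09 (adjusted p = 0.0191), and aldh1a3, at 0.44 (adjusted p = 0.0282), and without control pool 2 neither rise was called. Of the 20 dimmer probes of this list, 1 was lower and 5 higher over all probes, where 21% and 17.4% of all tested probes were. The 5 higher ones included 2 probes of crabp2a, at 4.59 and 1.32 (limma adjusted p = 0.00404 and 0.00291 over all probes). The brightest crabp2a probe was at 0.15 and its remaining probes at 0.26 and -0.05, so the probes of this gene did not agree. Also among the 5 were 1 probe of cyp26b1, at 0.93 against 0.38 for its brightest probe, and 1 of crabp1b, at 0.82 against -0.10.

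**Figure D5:**
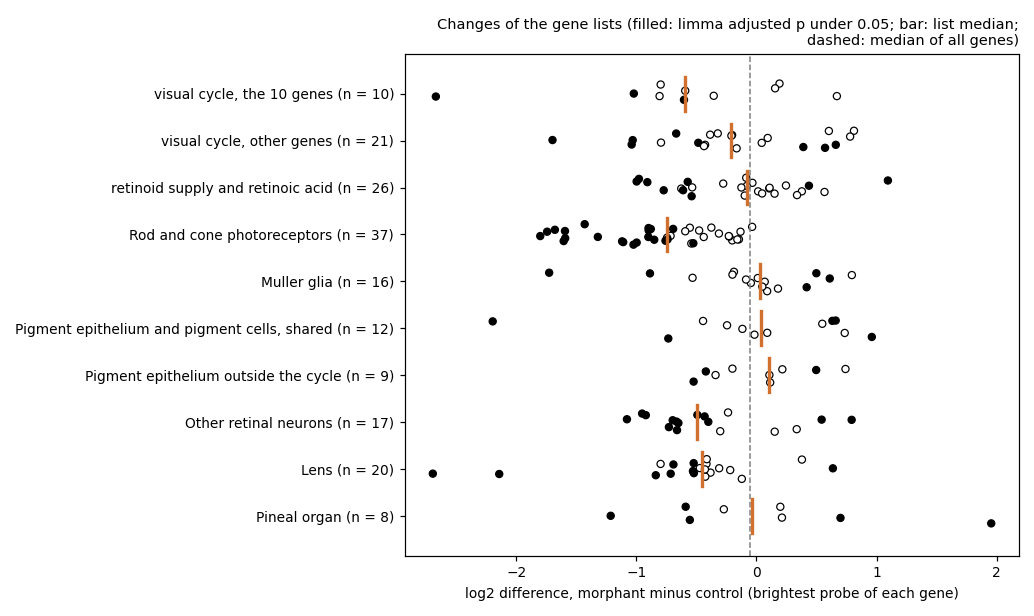
Difference between morphant and control pools for each measured gene of the 10 visual cycle genes, the other retinoid lists and the marker lists, by its brightest probe, on the log2 scale; filled points passed an adjusted p of 0.05 over all genes, bars mark list medians and the dashed line the median of all genes. All 37 photoreceptor markers lie below 0, while the Müller glia and pigment lists scatter about the dashed line.

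Markers of the cells that host the cycle were read beside the members. Of 37 measured rod and cone markers, 21 were lower, 0 higher and all 37 below 0, with a median of -0.74 (25 lower and 0 higher at an unadjusted limma p under 0.05), where 21.9% of all genes were lower, or 27.4% at an unadjusted p. With the spike-ins as the scale 6 passed as lower, beside 4.86% of all genes. The 21 markers lower on the percentile scale included guca1b and guca1d, which encode guanylate cyclase activators. On that scale they were at -1.80 (limma adjusted p = 0.0116) and -1.74 (limma adjusted p = 9.72e-05). The summed level of this list was 9.70 to 10.08 in controls and 8.55 to 9.53 in morphants, lowest in morphant pool 4. Among morphants, that pool was also lowest for rbp3, rlbp1a, rlbp1b, rdh8a and rbp4l, but highest for rpe65a, lrata and rgra, with probes of a gene averaged. In that pool 4 of 37 photoreceptor markers were above their morphant mean, beside 47% of all genes. The part of photoreceptor marker levels in the member differences was not tested.

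Müller glia markers did not move one way. Of 16 measured, 2 were lower and 3 higher, with a median of 0.03, beside 21.9% and 16.4% of all genes. The 3 became 1 without morphant pool 2 or without control pool 1, 2 or 3. On the spike-in scale 1 was lower and 11 higher, beside 4.86% and 53.4% of all genes. After normexp and the 75th percentile 1 was lower and 0 higher by limma, beside 5.54% and 5.93%. Their summed level was 8.01 to 8.29 in controls and 8.26 to 8.33 in morphants. rx2, a retinal homeobox gene, was at -1.73 (adjusted p = 0.000200) and the glutamate transporter slc1a3b at -0.89 (adjusted p = 0.00733), whereas the water channel aqp1a.1 was at 0.61 (adjusted p = 0.0305) and glulb, a glutamine synthetase gene, at 0.50 (adjusted p = 0.00864). Several genes of this list are also active outside the retina in whole larvae. These arrays do not show in which cells, inside or outside the retina, each gene changed.

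Pigment markers shared by the pigment epithelium and the pigment cells of the skin were lower in 2 of 12 and higher in 3 of 12, with a median of 0.04, beside 21.9% and 16.4% of all genes. The higher ones numbered 2 without any 1 morphant pool and without control pool 2 or 4, but 5 without control pool 1. The lower ones numbered 3 without morphant pool 2 and 1 without control pool 2. Under the spike-in scale 0 of 12 were lower and 8 higher, beside 4.86% and 53.4% of all genes. With normexp and the 75th percentile 0 were lower and 0 higher, beside 5.54% and 5.93% of all genes. Tyrosinase, tyr, was at -2.20 (adjusted p = 0.0190) and the channel gene trpm1a at -0.73 (adjusted p = 0.0131). On the other side, mitfa was at 0.96 (adjusted p = 0.0101) and pmelb at 0.66 (adjusted p = 0.0402). The tyr probe was very dim, at mean levels of -5.63 ± 0.46 in controls and -7.83 ± 1.32 in morphants (SD over pools). The mitfa probe was also dim, at -4.55 and -3.59. Of 9 pigment epithelium genes outside the cycle, 2 were lower and 1 higher, beside 21.9% and 16.4% of all genes. The lower were sfrp5, at -0.52 (adjusted p = 0.0119), and otx2b, at -0.42 (adjusted p = 0.0409), and krt8 was higher, at 0.50 (adjusted p = 0.0103). Under the spike-in scale 0 of the 9 were lower and 5 higher by limma, beside 4.86% and 53.4% of all genes. With normexp and the 75th percentile 0 of the 9 were lower and 0 higher, beside 5.54% and 5.93%. The count of 2 lower became 1 in each fit that left out morphant pool 1, 2 or 3 or control pool 1, 2 or 3. The summed level of those 9 was 5.67 to 5.82 in controls and 5.99 to 6.26 in morphants, and krt8, a keratin also made in skin, was by far the brightest of them. Without krt8 the sum was 3.40 to 3.77 in controls and 3.25 to 3.62 in morphants, which overlap, and 4 of the 9 differences were below 0.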

How the data were processed

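Total RNA of 8 pools, described in the labels as separate pools of larvae, was labelled (Cy3) for hybridisation on 1-colour Agilent zebrafish arrays (design 026437, assembly danRer6, per the file headers; the labels' protocol names mouse arrays). The deposited scanner files hold intensity values, per the file headers from Feature Extraction 10.7.3.1: a background-subtracted processed signal, not normalized between arrays, and raw spot and background signals. The deposited value table holds log2 values whose making is not given in the sources used here. Of its 8 columns, 6 matched another sample's scanner file of the same group, so it served only as an alternative.

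The log2 processed signal minus each array's 75th percentile was used, without control spots and spots marked as outliers, leaving 43603 probes. Probes stayed in if 1 of the groups had them well above background on each of its 4 arrays (36695). Probes were named by accession through a RefSeq table of GRCz12tu, used for names only: 25069 matched 12858 symbols. The comparison used limma 3.58.1 (lmFit, eBayes) under R 4.3.3, with Benjamini-Hochberg adjustment over all probes, or over all 23391 genes where the brightest probe stands for a gene. Each transcript with no symbol counted as a gene of its own there, so several may belong to the same gene. Gene pairs and array measures had two-sided exact permutation tests (70 arrangements) or sign-flip tests over 4 slides. The number of arrays limits the precision.

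Replicate numbers mark a shared slide and scan, per the file headers, and deviations from group means correlated at 0.444, 0.140, 0.305 and 0.259 between arrays of a number, so the numbers were taken to pair samples. Arrays of a group correlated at 0.976 to 0.992 and none were identical. Alternatives were other scalings (median, quantile, spike-ins), normexp with an offset of 50, the value table, no filter, brightest probes, the block and leaving out each pool.

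All member probes and every measured gene kept in the other visual cycle list are named, and up to 2 passing genes per direction of the remaining lists. Some genes of the lists are not reported here and were left out of the counts. Members and lists were chosen with earlier results of these data known. Promoter and protein sequences were not used here.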

Additional observations from a re-analysis of the deposited data

Results flagged for a closer look

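In 44 sets of 4 pools tested for a pool far from the others (both groups of every member probe and of the array measures), 2 stood out, and chance marks about 1 set in 20. In the morphants, the rbp3 probe A_15_P166156 had its lowest pool, replicate 4 at 1.57, separated from the next by 0.869 of the group's range. The rlbp1a probe A_15_P139966 had the same pool, at 1.11, separated by 0.925 of the range. Among morphants, the photoreceptor and lens marker lists were also lowest in that pool, at summed levels of 8.55 and 9.20. So were the other retinal neurons and the other visual cycle genes, at 5.61 and 7.51. In summed level the Müller glia list and both pigment lists were highest there, at 8.33, 6.67 and 6.26. A sum mostly follows the brightest genes of its list. Counted by genes, 4 of 16 Müller glia markers and 7 of 12 shared pigment markers were above their morphant mean there. For pigment epithelium genes outside the cycle it was 4 of 9, beside 47% of all genes. The part of these list levels in both results was not tested.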

How the results depend on the processing

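Of 298 member probe results recomputed under an alternative, 252 kept direction and side of the threshold, 21 newly passed, 16 no longer passed and 9 turned sign. Under spike-in scaling the sign turned for rbp4l at 0.109 (A_15_P104674), 0.0168 (A_15_P679411) and 0.111 (A_15_P745541), for rgrb at 0.0188 (A_15_P175516) and 0.119 (A_15_P668016), for lrata at 0.356 and for rlbp1b at 0.293 (A_15_P766161). Without control pool 4 it turned for rdh5 and for rlbp1a A_15_P731921, whose values with 1 pool left out ran from -0.147 to 0.581 and from -0.118 to 0.412. These turned values did not pass the threshold. Spike-in scaling called 1 member probe lower and 5 higher, and lower calls made up 7.66% of all calls against 54.7%. With normexp background correction before the 75th percentile, 3 members were lower and 0 higher, and over all probes 1787 were lower and 2161 higher in place of 7724 and 6392. Higher members numbered 2 with median scaling, with normexp and quantile normalization and with the deposited value table, and 0 without the filter on dim probes. Of all probes, 20.5%, 19%, 19.4% and 14.1% were higher in these 4 settings. Leaving out 1 pool gave 5 to 7 lower and 0 to 3 higher members, where 15.8% to 21.3% and 12.9% to 18.8% of all probes were. The 3 were without morphant pool 4, the 2 without control pool 1. The cause of these moves was not tested.

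Replicate block: with the slide as a block, 8 members were lower and 2 higher, where 24.3% and 19.9% of all probes were, the added calls being the brightest rgrb probe, rlbp1b A_15_P446290 and rdh8a A_15_P758736, and no other member call changed. The rgr pair kept its shift of -2.61, at a sign-flip p of 0.125, the smallest 4 slides allow. With brightest probes the rlbp1 shift was 1.48 and the rgr shift -2.08. Leaving out 1 pool, the rlbp1 shift was 1.02 to 1.49 and the rgr shift -2.93 to -2.34. The array 75th percentile differed by 297 to 445 and the spike-in signal by -695 to -454.

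Counts added after seeing the data gave 0 other visual cycle genes (by limma) and 6 photoreceptor markers lower under spike-in scaling. With normexp and the 75th percentile, 12 photoreceptor markers were lower. Of all genes, 4.86% and 5.54% were lower in these settings. Calls near the threshold shifted sides for dim probes, such as rgrb A_15_P114295 (signals down to 128). They also did so for bright ones, such as rbp4l A_15_P745541 (signals down to 37219). The part of probe brightness in these shifts was not tested.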

Other observations

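Markers of other parts of the eye and of the pineal organ, which also holds photoreceptors, were read on the same arrays. The pools were whole larvae, so a change in such a marker cannot be placed in the eye or the pineal organ. Of 17 measured markers of other retinal neurons, 11 were lower and 2 higher, with a median of -0.49, where 21.9% and 16.4% of all genes were lower and higher. The 2 became 1 in the fits without any 1 morphant pool and without control pool 1 or 4. The glycine transporter gene slc6a9 was at -1.08 and the ganglion cell factor pou4f2 at -0.95, against 0.79 for lhx1a and 0.54 for grm6b. Under the spike-in scale 0 of the 17 were lower and 3 higher by limma, where 4.86% and 53.4% of all genes were. Of 20 lens genes, 8 were lower and 1 higher, with a median of -0.45, beside 21.9% and 16.4% of all genes. Under the spike-in scale 2 were lower and 3 higher, beside 4.86% and 53.4% of all genes. The 8 became 4 without control pool 2, and the 1 became 2 without morphant pool 4. The crystallin genes crygm5 and crygm1 were at -2.69 and -2.14, and cryba1a was at 0.64. In morphant pool 4, 0 of 20 lens genes and 1 of 17 neuronal markers were above their morphant mean, beside 47% of all genes.

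Of 8 measured pineal genes, 3 were lower and 2 higher, with a median of -0.04, beside 21.9% and 16.4% of all genes. Under the spike-in scale 0 were lower and 4 higher by limma, beside 4.86% and 53.4% of all genes. The 3 became 1 without morphant pool 1, 2 or 4 or control pool 1 or 2, and also with median or quantile scaling. aanat2, the enzyme that sets the rhythm of melatonin synthesis, was at -1.21 and asmt at -0.59, whereas asmt2 was at 1.95 and tph2, a serotonin synthesis gene, at 0.70.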
